A study of Mus with 4 samples.

Results

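Expression of 5 genes used to recognise the endocardium and the heart valves was examined in newborn mouse hearts with raised miR-187. They are *Npr3* (ENSMUSG00000022206), *Nfatc1* (ENSMUSG00000033016), *Cdh11* (ENSMUSG00000031673), *Plvap* (ENSMUSG00000034845) and *Edn1* (ENSMUSG00000021367). They were picked by Ensembl gene ID from a table of 55487 IDs as known markers, by a rule that uses no measured value but was written with earlier results of these data known. All 5 were listed with a value above 0 in every library and entered the test, which took in 14325 genes whose mean reached 1 FPKM. FPKM scales fragment counts by transcript length and by the mapped total of a library, so levels of different genes can be set side by side per unit length.

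The hearts were taken at postnatal day 0 (P0), and 4 RNA-Seq libraries were compared, 2 labelled WT and 2 labelled miR-187. Per the study's methods, the miR-187 line carries exogenous mmu-miR-187 at *Rosa26* under the *Tek* (*Tie2*) promoter on a C57BL/6J background, a promoter active in endothelial cells, the endocardium included. Those methods name KI/KI and WT pups for RNA-Seq, whereas the labels give no zygosity. The methods also name isolated cardiac endothelial cells where the labels say heart. Which of them the libraries hold was not checked against cell type markers, because no other ID was paired with a gene name here. No label says that the libraries came from separate animals, so the p-values given here measure the spread between libraries, which may be technical. In bulk RNA, fewer cells of a type and less RNA per cell cannot be told apart.

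The endocardium is the endothelial lining of the heart chambers. Over the outflow tract and the atrioventricular canal, part of it leaves the lining, becomes mesenchyme and fills the cushions that are remodelled into valves and contribute to septation. *Npr3* and *Nfatc1* are widely used marks of the lining itself, and *Cdh11* of cushion and valve mesenchyme. *Plvap* marks endothelium whose fenestrae or caveolae have diaphragms, and *Edn1* encodes a peptide that endothelium releases.

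All 5 genes are protein coding in the RefSeq annotation of GRCm38.p6. *Npr3* lies on chromosome 15 from 11839896 to 11907837, and *Edn1* on chromosome 13 from 42301476 to 42307990. *Plvap* and *Cdh11* share chromosome 8, at 71497753 to 71511806 and at 102632095 to 102785493. *Nfatc1* spans 80606205 to 80713071 on chromosome 18. The genes are thus not neighbours, and each value is a sum over the whole gene that does not separate exons or isoforms.

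None of the 5 genes passed the test between miR-187 and WT hearts. At an adjusted p under 0.05, 0 of 5 were called, against 0.00698% of all tested genes (1 of 14325, limma with Benjamini-Hochberg adjustment). At an unadjusted p under 0.05 the count was again 0 of 5, against 3.12% of tested genes. The log2 differences of the members ran from -0.40 to 0.58, with a median of 0.10, beside a median of -0.04 over all tested genes.

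**Figure D1:**
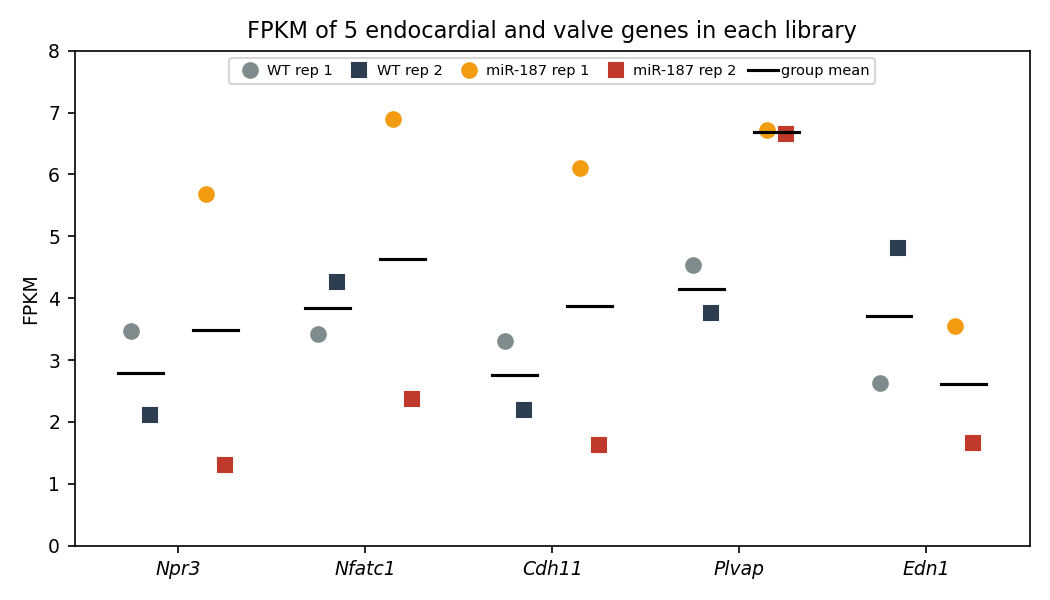
FPKM of *Npr3*, *Nfatc1*, *Cdh11*, *Plvap* and *Edn1* in each of 4 libraries (points; WT grey and dark, miR-187 orange and red), with the mean of each group as a bar. The 2 miR-187 points lie on either side of both WT points for *Npr3*, *Nfatc1* and *Cdh11*, and above both for *Plvap*.

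*Npr3* encodes the natriuretic peptide receptor without a guanylyl cyclase domain, which takes natriuretic peptides up and clears them. Its level was 3.47 and 2.11 FPKM in WT replicates 1 and 2, and 5.68 and 1.30 FPKM in miR-187 replicates 1 and 2. The miR-187 libraries therefore enclosed the WT values, with replicate 1 above both and replicate 2 below both. The WT mean was 2.79 ± 0.961 FPKM and the miR-187 mean 3.49 ± 3.09 FPKM (SD, n = 2 per group). On the log2(FPKM + 1) scale the difference was 0.07, with a 95% interval from -0.80 to 0.94 and an adjusted p of 0.9997 (limma). That interval runs from 0.575-fold to 1.92-fold of FPKM + 1, so changes within that range could not be resolved. In FPKM itself the range is wider, because the added 1 understates changes of low genes. The direction rested on individual libraries, since the difference became -0.70 without miR-187 replicate 1, -0.19 without WT replicate 2, 0.33 without WT replicate 1 and 0.84 without miR-187 replicate 2. The last had an unadjusted p of 0.0404 and an adjusted p of 0.9996 (limma, in a fit with infinite prior degrees of freedom, where a gene's own spread does not enter).

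*Nfatc1* encodes a transcription factor that calcineurin releases into the nucleus, and in the heart it is needed in endocardial cells for valve formation. WT replicates 1 and 2 had 3.42 and 4.27 FPKM, and the corresponding miR-187 libraries 6.90 and 2.36 FPKM. Again the miR-187 libraries were the highest and the lowest of all. WT averaged 3.84 ± 0.598 FPKM and miR-187 averaged 4.63 ± 3.21 FPKM (SD, n = 2 per group). The log2 difference was 0.10 (95% interval -0.72 to 0.91, limma adjusted p = 0.9997). It turned to -0.52 without miR-187 replicate 1 and to -0.03 without WT replicate 1, was 0.71 without miR-187 replicate 2, and was 0.22 without WT replicate 2. In WT, *Nfatc1* was higher in replicate 2, which was the opposite of *Npr3*.

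*Cdh11* encodes cadherin-11, an adhesion protein of mesenchymal cells that is found in cushion and valve interstitial cells. WT values were 3.31 and 2.20 FPKM, whereas miR-187 values were 6.11 and 1.63 FPKM. As for the lining markers, miR-187 replicate 1 was above both WT libraries and replicate 2 below both. A WT mean of 2.76 ± 0.788 FPKM and a miR-187 mean of 3.87 ± 3.16 FPKM (SD, n = 2 per group) gave a log2 difference of 0.22 (95% interval -0.63 to 1.07, limma adjusted p = 0.9997). It changed sign to -0.50 without miR-187 replicate 1, was close to 0 without WT replicate 2 (0.0047), and reached 0.44 without WT replicate 1. Without miR-187 replicate 2 it was 0.94, with an unadjusted p of 0.0226 but an adjusted p of 0.9996 (limma, with the same limit as for *Npr3*).

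*Plvap* encodes the protein that forms the diaphragms of endothelial fenestrae and caveolae, and it is expressed in endocardium and in the vessels of several organs. In WT it had 4.54 and 3.76 FPKM, and in miR-187 it had 6.73 and 6.65 FPKM. It was the 1 gene of the 5 whose groups did not overlap, the lower miR-187 value being 1.46 times the higher WT value. Among tested genes, 12.3% had the miR-187 pair above the WT pair without overlap and 13.2% had it below, so 1 of 5 members in the first pattern and 0 in the second is close to the background. WT averaged 4.15 ± 0.553 FPKM, and miR-187 averaged 6.69 ± 0.0553 FPKM (SD, n = 2 per group). The log2 difference of 0.58 corresponded to 1.5-fold on the log2(FPKM + 1) scale, with an interval from 0.907-fold to 2.47-fold. It did not pass the test (unadjusted p = 0.109, adjusted p = 0.9997, limma). A difference at least this large in size was found for 9.84% of tested genes. With each library left out in turn it stayed between 0.47 (without WT replicate 2) and 0.69 (without WT replicate 1). Because the groups did not overlap, its sign could not change in these fits. Markers of other tissues in which *Plvap* is known were not paired with IDs, and their part in its level was not tested.

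*Edn1* encodes the precursor of endothelin-1, a vasoconstrictor peptide that endothelial and endocardial cells secrete. WT replicates 1 and 2 had 2.62 and 4.81 FPKM, while miR-187 replicates 1 and 2 had 3.55 and 1.66 FPKM. The groups overlapped, because miR-187 replicate 1 fell between the WT libraries and only miR-187 replicate 2 was below them. It was the member with a negative difference, with 3.72 ± 1.55 FPKM on average in WT against 2.61 ± 1.34 FPKM (SD, n = 2 per group). The log2 difference was -0.40 (95% interval -1.18 to 0.38, limma adjusted p = 0.9997, unadjusted p = 0.298). It was -0.79 without miR-187 replicate 1 and -0.74 without WT replicate 1. It shrank to -0.01 without miR-187 replicate 2 and to -0.06 without WT replicate 2.

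**Figure D2:**
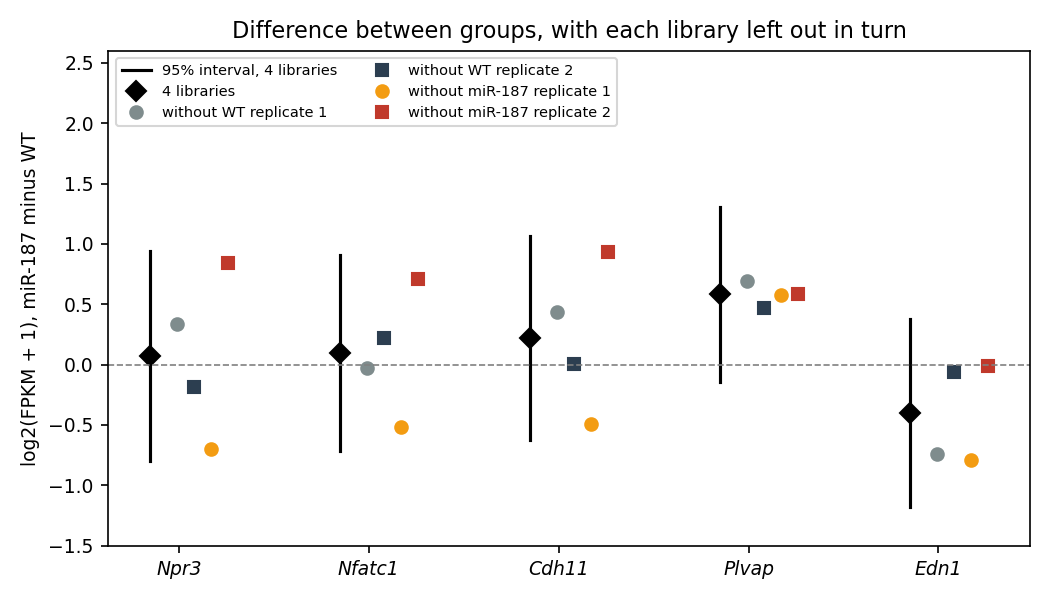
Difference of miR-187 minus WT in log2(FPKM + 1) for each gene from 4 libraries (diamond, with its 95% limma interval as a line), and with 1 library left out (circles and squares, colours as in the key). The 5 intervals include 0. *Npr3*, *Nfatc1* and *Cdh11* have points on both sides of 0, those of *Plvap* lie above it and those of *Edn1* below it.

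On the log2(FPKM + 1) scale, miR-187 libraries were further apart than WT libraries for 4 of 5 genes and 51.3% of tested genes. *Plvap* was the exception among the members. In FPKM itself *Edn1* also went the other way, with an SD of 1.55 in WT against 1.34 in miR-187. Replicate 1 exceeded replicate 2 by 4.36 times for *Npr3*, 3.74 times for *Cdh11*, 2.92 times for *Nfatc1* and 2.14 times for *Edn1*, but by 1.01 times for *Plvap*. The WT replicates were 1.64 times apart for *Npr3*, 1.51 for *Cdh11*, 1.25 for *Nfatc1*, 1.21 for *Plvap* and 1.84 for *Edn1*. The standard errors from limma, which draws mostly on the spread of all genes, differed less, at 0.42 for *Npr3*, 0.39 for *Nfatc1*, 0.41 for *Cdh11* and 0.35 for *Plvap*, beside a median of 0.37 over tested genes.

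Such a gap between the miR-187 replicates was uncommon in the table. On the log2(FPKM + 1) scale it was 1.54 for *Npr3*, 1.43 for *Cdh11* and 1.23 for *Nfatc1*. Gaps of at least these sizes, in either direction, were seen in 1.23%, 1.63% and 2.89% of the 14325 tested genes. Among the 5025 genes with a mean of 2 to 6 FPKM, a range that holds all 5 members, the shares were 1.01%, 1.37% and 2.75%. The gap of *Edn1*, 0.77, was reached by 14.8% of tested genes. In *Plvap* it was 0.01, smaller than in 97.9% of them. These shares describe the table, and no test was made of them, since a pair of libraries gives no replicate of its own difference.

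**Figure D3:**
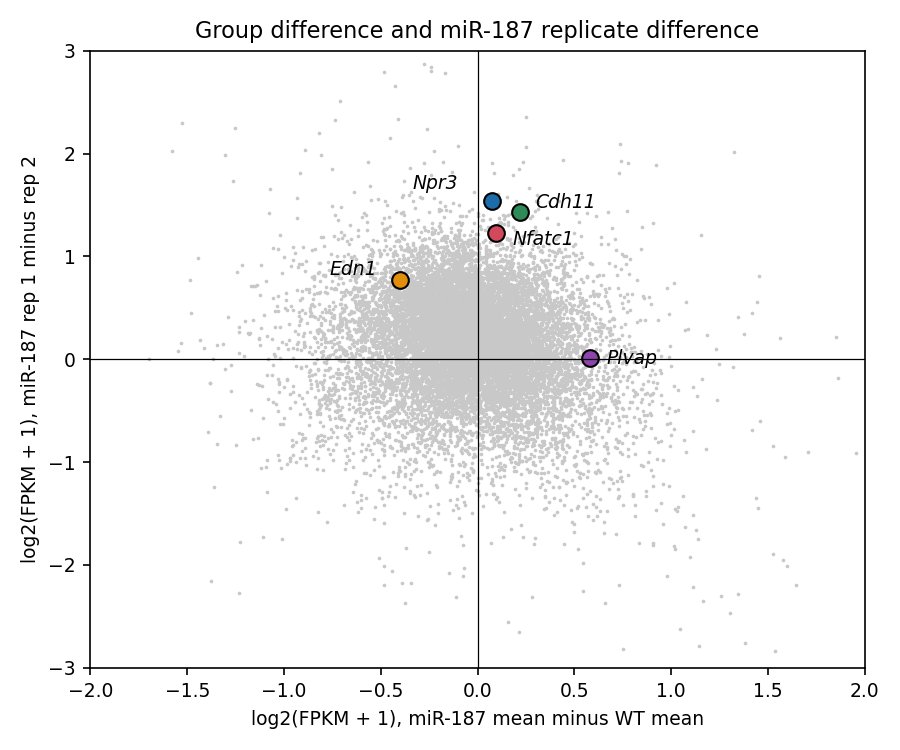
Each grey point is 1 of 14325 tested genes, with the miR-187 minus WT difference of the group means on the x axis and miR-187 replicate 1 minus replicate 2 on the y axis, both in log2(FPKM + 1). *Npr3*, *Cdh11* and *Nfatc1* lie near 0 on the x axis and above 1.2 on the y axis, *Plvap* lies near 0 on the y axis, and 40 genes fall outside the plotted limits.

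The direction of this gap was seen in many genes, a gap of this size in few. miR-187 replicate 1 was the highest library for 4 of 5 members and for 30.3% of tested genes, and miR-187 replicate 2 was the lowest for 4 of 5 members and for 39.1% of tested genes. Both held together for *Npr3*, *Nfatc1* and *Cdh11*, and for 15.3% of tested genes. Among genes with a mean of 2 to 6 FPKM these patterns were more common, at 35.8%, 46.6% and 20.0%. The median gap between the miR-187 replicates was 0.19 over tested genes and 0.27 over those with a mean of 2 to 6 FPKM. Libraries were also rescaled by trimmed mean of M-values (TMM) factors. These were 1.01, 1.02, 1.08 and 0.903 for WT replicates 1 and 2 and miR-187 replicates 1 and 2. The differences between groups were then 0.08 for *Npr3*, 0.12 for *Nfatc1*, 0.24 for *Cdh11*, 0.62 for *Plvap* and -0.38 for *Edn1*. The gap between the miR-187 replicates was not recomputed after this rescaling.

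miR-187 replicate 2 stood apart from the other libraries in further respects. It had the fewest IDs above 0, at 44825 against 50294 to 53180 in the others. It also held 16 genes that reached 10 FPKM and exceeded their value in every other library by 10 times or more, a pattern of 0 to 4 genes elsewhere. Those genes made up 0.879% of its FPKM sum. Whether the cell content of this library differs was not tested, and its part in the low values of *Npr3*, *Nfatc1*, *Cdh11* and *Edn1* was not tested.

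The share of each gene's variance that lay between the groups ranged widely among the members. It was 0.392% for *Npr3*, 1.15% for *Nfatc1* and 4.16% for *Cdh11*, beside a median of 19.7% over tested genes, and 92.9%, 88.0% and 76.8% of tested genes reached these shares. For *Edn1* it was 23.0%, a middling value that 45.9% of tested genes reached. For *Plvap* it was 93.3%, a share reached by 1.91% of tested genes. The share takes no account of the spread of other genes, which limma uses, and *Plvap* did not pass that test.

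*Npr3* and *Cdh11* had the most similar profiles of the 10 pairs of members. Likeness was measured as the root mean square (RMS) difference of log2(FPKM + 1) over the 4 libraries, after each gene was centred on its own mean. It was 0.089 for *Npr3* with *Cdh11*, and 0.0419% of tested genes lay as near to *Npr3*. As this pair was picked for being the nearest, that share is a selected one and was not tested. The ratio of *Npr3* to *Cdh11* was 1.05 and 0.961 in WT and 0.930 and 0.797 in miR-187 replicates 1 and 2, although *Npr3* varied by 4.36 times and *Cdh11* by 3.74 times across the same libraries. A ratio within a library does not depend on how that library was scaled.

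*Nfatc1* was next in likeness, at an RMS difference of 0.26 from *Cdh11* and 0.29 from *Npr3*, and 2.01% of tested genes lay as near to *Cdh11* and 2.76% as near to *Npr3* as it did. Seen from *Nfatc1*, 9.41% of tested genes were as near as *Cdh11* and 14.5% as near as *Npr3*, so its profile was a more common one. Relative to its own mean, *Nfatc1* lay below both genes in WT replicate 1 and above both in WT replicate 2. The ratio of *Npr3* to *Nfatc1* was 1.02 and 0.495 in these libraries, and 0.822 and 0.551 in miR-187.

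*Plvap* and *Edn1* were the least alike, with an RMS difference of 0.64. The ratio of *Plvap* to *Edn1* was 1.73 and 0.781 in WT and 1.89 and 4.0 in miR-187 replicates 1 and 2. *Plvap* was also 0.60 from *Npr3*, and the ratio of *Npr3* to *Plvap* was 0.764 and 0.562 in WT and 0.844 and 0.196 in miR-187. The members of the list thus did not move as a block, and in miR-187 replicate 2 *Plvap* was high where the 4 other genes were at their lowest. With 4 libraries no correlation between members is given.

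**Figure D4:**
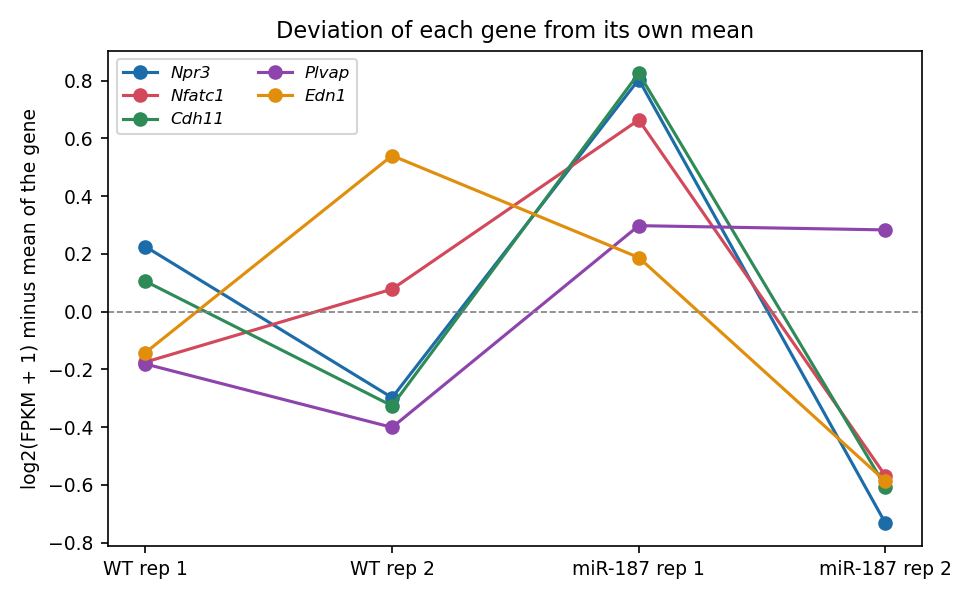
Deviation of log2(FPKM + 1) from the mean of the gene in each of 4 libraries, where lines only join the points of a gene. *Npr3* and *Cdh11* nearly coincide, *Nfatc1* lies below them in WT replicate 1 and above them in WT replicate 2, and *Plvap* is above its mean (0.28) in the miR-187 replicate 2 library, where the other genes lie between -0.73 and -0.57.

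All 5 genes were of moderate level, with means over the 4 libraries from 3.14 FPKM for *Npr3* to 5.42 FPKM for *Plvap*. In WT the order of mean FPKM was *Plvap*, *Nfatc1*, *Edn1*, *Npr3* and *Cdh11*, and each overlapped its neighbour in that order. *Plvap* was above *Npr3* and *Cdh11* in both WT libraries without overlap, and *Nfatc1* above *Cdh11*. In miR-187 the order was *Plvap*, *Nfatc1*, *Cdh11*, *Npr3* and *Edn1*, again with overlap between neighbours. The mean of *Edn1* thus ranked above *Npr3* and *Cdh11* in WT and below them in miR-187, a shift smaller than the spread of its libraries.

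Ranks within a library were compared for *Npr3* and *Plvap*. *Npr3* exceeded 58.9% of tested genes in miR-187 replicate 1 but 18.2% in miR-187 replicate 2, with 46.0% and 30.6% in WT. *Plvap* exceeded 63.9% and 67.0% in miR-187, against 55.3% and 47.9% in WT. Ranks do not depend on a scale factor, and they placed the libraries of *Npr3* in the same order as FPKM did. For *Plvap* they kept both miR-187 libraries above both WT libraries, with replicate 2 rather than replicate 1 in first place.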

How the data were processed

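RNA-Seq of P0 hearts was examined in 4 libraries (2 WT, 2 miR-187). The authors deposited 1 table of FPKM values for 55487 Ensembl IDs, without counts, so depth is unknown and no depth-based interval is given. The submitters' processing notes name HISAT2, StringTie, DESeq2 and mm10, without versions or roles. Annotation and use of strand are not given in the sources used here. Values had up to 6 decimals and were not recovered as reads.

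IDs were matched to the 5 genes without the version suffix. The members and lists were chosen with earlier results of these data known. Lists of related genes and cell type markers, drawn up by symbol, were not analysed here, because the RefSeq table used (GRCm38.p6) holds Ensembl IDs for 0 genes. Under the rule for named genes, only the members are then named. The RefSeq table served for coordinates, by symbol.

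The test used limma 3.58.1 under R 4.3.3 (a linear model per gene, with moderated variances that follow a trend on the mean) on log2(FPKM + 1), which understates changes of low genes. Genes averaging 1 FPKM or more (14325) were tested, two-sided, with Benjamini-Hochberg adjustment over all of them and a threshold of 0.05. An exact permutation test of 2 against 2 libraries cannot go below 0.333 and was not used. The fit was tested on simulated data. Alternatives covered the pseudocount, the filter, scaling, the eBayes settings, a replicate block and leaving out each library. Same-numbered libraries deviated from their group means with r = -0.0846 across tested genes, and no label ties the numbers to a litter or batch, so they were not taken as pairs. Figures used matplotlib 3.10.9 in Python 3.11.15.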

Additional observations from a re-analysis of the deposited data

How the results depend on the processing

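Of 66 values of the 5 genes under the alternatives, 61 kept their direction and none had an adjusted p under 0.05 (the lowest was 0.801, for *Edn1* without miR-187 replicate 1). The filter, the eBayes settings and the replicate block do not alter the difference itself, so their values could not change direction. The 5 that changed sign each left out a library. Across these omissions the log2 differences ran from -0.70 to 0.84 for *Npr3*, from -0.52 to 0.71 for *Nfatc1*, from -0.50 to 0.94 for *Cdh11*, from 0.47 to 0.69 for *Plvap* and from -0.79 to -0.01 for *Edn1*. An arm with 1 library was assumed to vary like the other. A minimum mean of 5 FPKM left *Plvap* alone in the test. Centring on endothelial markers was not run, as it needed their names.

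Over all genes, 0 were called higher and 1 lower. With the minimum mean lowered to 0.1 FPKM there were 31 higher and 15 lower, robust eBayes 4 and 2, and the replicate block 33 and 18. There were 0 lower genes with a minimum mean of 5 FPKM, without a filter and with quantile normalization. Counts ran from 11 to 62 higher and from 14 to 56 lower with a library omitted. The minimum of 5 FPKM tested fewer genes; for the other settings the cause was not tested. The estimated prior degrees of freedom were infinite with the 0.1 FPKM minimum, with the block and in each fit that left out a library, so that a gene's own spread no longer entered its test there, against 19.5 in the fit reported. With the replicate block, the difference was 0.07 for *Npr3* and 0.58 for *Plvap*, the same as without it by construction. Each group holds both replicate numbers, so the block could not alter a difference. The call of no member changed.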
